A study of Homo sapiens with 12 samples.

Results

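Chemokines are small secreted proteins that steer white blood cells, and 10 of their genes were followed in MG63 cells, an established human osteosarcoma line: CXCL1, CXCL2, CXCL3, CXCL5, CXCL6, CXCL8, CXCL12, CXCL16, CCL2 and CCL20. They were taken by name from a table of read counts with 50868 genes, in which all 10 had a row and all 10 passed the filter on low counts. The table holds 12 RNA-seq libraries in 4 groups of 3. The compound experiment set 18 h of 1 µM anticarin-beta against its vehicle. The siRNA experiment set an siRNA specific for CCT4, a subunit of the chaperonin that folds actin and tubulin, against the Allstar control siRNA, with collection at 2 days. All groups grew in DMEM with FBS and penicillin-streptomycin. The series asks how the transcriptome of osteosarcoma cells responds to the compound and to CCT4 knockdown. Both experiments used this single line. Whether replicates were grown as separate cultures is not said in the labels, and p-values therefore cover the spread among these libraries alone, possibly a technical one.

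CXCL1, CXCL2, CXCL3, CXCL5, CXCL6 and CXCL8 carry a short glutamate-leucine-arginine motif before their first cysteines and attract neutrophils through the receptors CXCR1 and CXCR2. CCL2 attracts monocytes through CCR2, CCL20 attracts dendritic cells and lymphocytes through CCR6, CXCL12 retains and guides cells through CXCR4, and CXCL16 is made as a membrane protein that binds CXCR6. Several of these genes are classical targets of the transcription factors NF-kB and AP-1 after cytokine or stress signals, and their short-lived mRNAs are cleared by proteins that bind AU-rich elements, whereas CXCL12 is usually produced by mesenchymal cells without stimulation.

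The sequence just before the start of each gene is shown because the promoters of 6 of these genes share letters there. RefSeq promoters on GRCh38.p14 were found for 8 of the 10 genes, the exceptions being CXCL16 and CCL2, and the 140 bases before the RefSeq start are printed 5′ to 3′ on the strand of the gene. GENCODE release 29 places the start of several of these genes elsewhere, so a window can reach into its gene model. Capitals mark the longest run of bases that the windows of CXCL1, CXCL2, CXCL3, CXCL5 and CXCL6 have in common, or, where it is absent, the longest run that these windows have in common with that of CXCL8. The runs were found by comparing the printed sequences, so that these 6 genes hold them is how they were chosen.
CXCL1 (chr4:73869253-73869392, plus strand): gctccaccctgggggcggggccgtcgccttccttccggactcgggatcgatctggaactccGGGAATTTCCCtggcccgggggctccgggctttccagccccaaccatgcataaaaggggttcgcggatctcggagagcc
CXCL2 (chr4:74099196-74099335, minus strand): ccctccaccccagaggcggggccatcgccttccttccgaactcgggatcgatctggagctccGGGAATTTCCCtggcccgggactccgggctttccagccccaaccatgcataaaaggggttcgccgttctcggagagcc
CXCL3 (chr4:74038690-74038829, minus strand): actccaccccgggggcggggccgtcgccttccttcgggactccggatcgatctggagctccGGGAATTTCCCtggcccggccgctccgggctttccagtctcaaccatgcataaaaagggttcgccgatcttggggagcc
CXCL5 (chr4:73998678-73998817, minus strand): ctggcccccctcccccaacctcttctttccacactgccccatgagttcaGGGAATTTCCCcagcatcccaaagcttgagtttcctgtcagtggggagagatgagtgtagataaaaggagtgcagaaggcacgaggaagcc
CXCL6 (chr4:73836538-73836677, plus strand): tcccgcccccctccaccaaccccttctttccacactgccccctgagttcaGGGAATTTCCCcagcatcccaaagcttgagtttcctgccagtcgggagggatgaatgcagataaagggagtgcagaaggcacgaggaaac
CXCL8 (chr4:73740429-73740568, plus strand): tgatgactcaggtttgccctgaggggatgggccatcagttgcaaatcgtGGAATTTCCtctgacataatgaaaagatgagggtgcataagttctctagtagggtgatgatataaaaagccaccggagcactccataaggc
CXCL12 (chr10:44385098-44385237, minus strand): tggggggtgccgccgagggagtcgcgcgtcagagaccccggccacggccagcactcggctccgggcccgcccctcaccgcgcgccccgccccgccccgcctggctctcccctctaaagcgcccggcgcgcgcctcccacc
CCL20 (chr2:227813702-227813841, plus strand): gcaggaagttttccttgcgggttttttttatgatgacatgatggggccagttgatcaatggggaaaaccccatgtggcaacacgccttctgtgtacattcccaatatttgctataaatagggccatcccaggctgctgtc

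The run common to CXCL1, CXCL2, CXCL3, CXCL5 and CXCL6 is 11 bases long, gggaatttccc, and resembles the sites bound by NF-kB. It lies 79 to 69 bases before the start in CXCL1 and CXCL3 and 78 to 68 bases before it in CXCL2, within a run of 23 bases that these 3 promoters share, ctccgggaatttccctggcccgg. In CXCL5 it lies 91 to 81 bases and in CXCL6 90 to 80 bases before the start, within a shared run of 45 bases. CXCL8 holds the inner 9 bases, ggaatttcc, from 91 to 83 bases before the start. On either strand, neither run occurs in the 300 bases examined for CXCL12 and CCL20. Only these exact runs were searched, so their absence does not show that a promoter lacks other sites like those bound by NF-kB. Among 35116 RefSeq promoters of 300 bases, the 11-base run was found on either strand in 0.0769% and the 9-base run, which lies inside it, in 0.461%. These matches describe letters only.

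**Figure D1:**
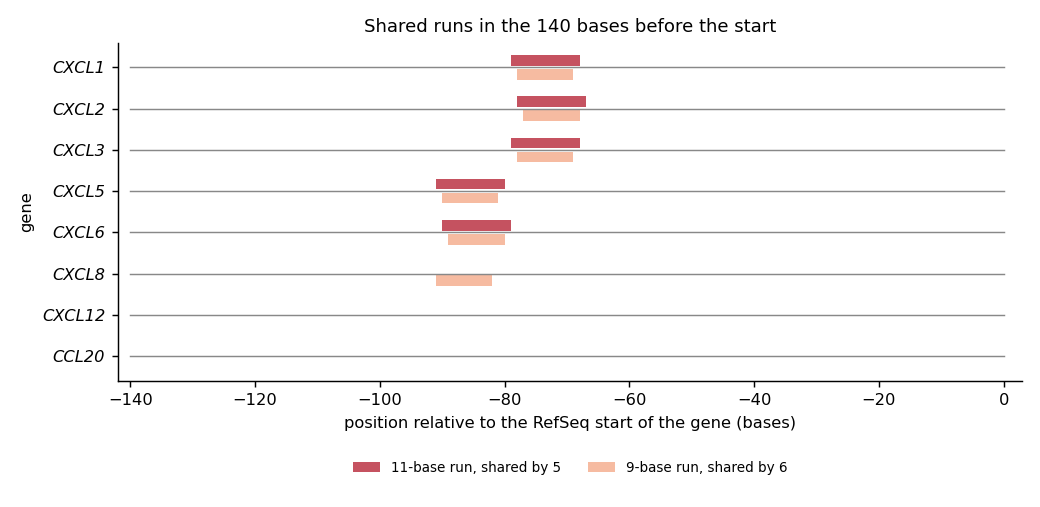
Positions of the shared runs (boxes) in the 140 bases before the RefSeq start of 8 chemokine genes, in bases from the start; the 11-base run is drawn above the line and the 9-base run below it. The runs of CXCL1, CXCL2 and CXCL3 begin at -79 to -77, those of CXCL5, CXCL6 and CXCL8 at -91 to -89, CXCL8 has the shorter one alone, and CXCL12 and CCL20 have none.

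Library totals ranged from 13393750 to 17492095 counts, and levels are given as CPM, counts scaled to a common library size by TMM, edgeR's normalization, for which 3 counts in a library correspond to 0.160 to 0.277 CPM. The TMM factors were 0.804 to 0.810 in the anticarin-beta libraries and 1.02 to 1.12 in the other groups, so the choice of scaling matters more for the compound than for the siRNA. With library totals alone, the median over all genes of the log2 fold change moved to -0.48 from -0.06 for the compound and to -0.12 from 0.01 for the siRNA. Vehicle replicate 1 stood apart from the other vehicle libraries, with a chi-square per degree of freedom of 26.7 and 28.8 against them, where these 2 differed from each other by 14.5 and replicates of the other groups by 8.93 to 11.6. It had the lowest vehicle level of 9 of the 10 chemokines. Osteoblast and mesenchymal markers summed to 14409–15190 CPM with anticarin-beta, 8945–11615 CPM with vehicle, 4779–4994 CPM in the libraries labelled CCT4 siRNA and 3712–4029 CPM with control siRNA. These sums cover all 10 markers, of which 9 passed the filter. Of 8 myeloid markers, LYZ and AIF1 had 0 counts in every library and 4 passed the filter, of which CD68 was the most abundant. Of 7 epithelial markers 3 passed the filter, KRT14 and KRT19 among them, and all 7 summed to 5.51–6.50 CPM with vehicle. The epithelial genes EPCAM and CDH1 reached at most 4 and 2 counts in a library.

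The chemokines as a group were far more abundant with anticarin-beta than with vehicle. Together the 10 genes took 1.28 ± 0.0530% of all counts with anticarin-beta and 0.154 ± 0.0314% with vehicle (SD, n = 3 each), and 1.08 ± 0.0458% in the libraries labelled CCT4 siRNA and 0.703 ± 0.0176% with control siRNA. CXCL8 alone made up 78.8 ± 2.03% of the chemokine counts with anticarin-beta and 35.2 ± 2.04% with vehicle, and 75.2 ± 0.846% against 80.9 ± 0.227% in the siRNA experiment. The vehicle libraries spread the widest relative to their mean, and no library of either treated group overlapped its controls in the total share. RNA was taken from whole cultures, so more cells that express a gene and more of its RNA per cell cannot be told apart.

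**Figure D2:**
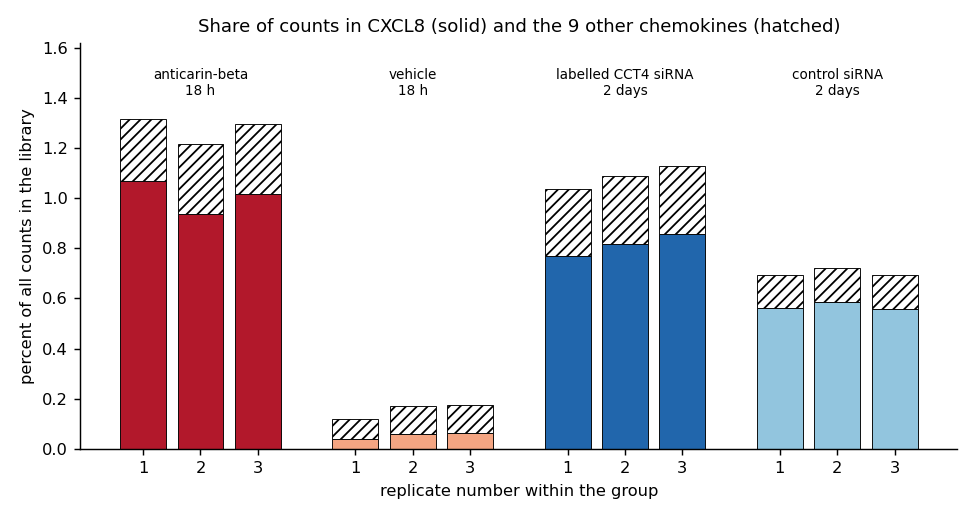
Percent of all counts in each of the 12 libraries that fell on CXCL8 (solid bars) and on the 9 other chemokines (hatched), by group and replicate. The anticarin-beta libraries hold 1.22% to 1.32%, the vehicle libraries 0.118% to 0.173%, the libraries labelled CCT4 siRNA 1.04% to 1.13% and the control siRNA libraries 0.691% to 0.723%.

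With anticarin-beta, 8 of the 10 chemokines were higher and CXCL16 was lower at an adjusted p under 0.05 (edgeR's quasi-likelihood test with Benjamini-Hochberg adjustment over 17717 genes), and CXCL12 did not pass. The background was wide: 73.0% of all genes tested were called in this comparison, 34.9% higher and 38.0% lower. The median log2 fold change of the 10 was 2.41, against -0.06 over all genes. For the same 8 chemokines no anticarin-beta library overlapped a vehicle library, a state shared by 35.8% of all genes in that direction, and CXCL16 lay just below without overlap, as did 38.8% of genes. Without vehicle replicate 1, the same 8 were higher, and CXCL12 joined CXCL16 among the lower ones. Under library totals alone, where 4292 genes were called higher and 8959 lower in place of 6186 and 6740, the chemokines split 8 higher and 2 lower. Of the 4 myeloid markers tested, 3 were higher with anticarin-beta too, CSF1R by 2.05, CD14 by 0.58 and CD68 by 0.56 on the log2 scale (adjusted p = 0.00525, 0.0359 and 0.0233), and their part in the chemokine differences was not tested. CD68 averaged 23.9 CPM with anticarin-beta and 16.2 CPM with vehicle, and CSF1R 0.646 and 0.147 CPM. That vehicle mean of CSF1R lay below the level of 3 counts in a vehicle library, 0.160 to 0.181 CPM. The calls of CD14 and CD68, unlike that of CSF1R, were lost with upper-quartile scaling, with library totals alone (adjusted p = 0.52 and 0.538) and without vehicle replicate 1. Further libraries whose omission lost them were vehicle replicate 3 and anticarin-beta replicates 1 and 3 for CD14, and vehicle replicate 2 and anticarin-beta replicate 2 for CD68.

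The siRNA comparison was checked on its target first. CCT4 mRNA had 201, 200 and 216 CPM in the libraries labelled CCT4 siRNA, against 186, 160 and 185 CPM with control siRNA. It was not lower, and the log2 fold change was 0.22 ± 0.09 (SE, adjusted p = 0.129, and 0.0734 to 1 over the alternatives). Ranges over the alternatives, here and below, include a test against a 1.5-fold threshold, a stricter question than a test of any difference. In the compound experiment CCT4 averaged 82.3 CPM with anticarin-beta and 236 CPM with vehicle (log2 -1.52 ± 0.10, adjusted p = 1.84e-08), where 38.0% of all genes were called lower. The compound response of CCT4 minus its siRNA response was -1.74 ± 0.14 (adjusted p = 2.78e-07). COMMD1 and AC107081.2 overlap the exons of CCT4 on the opposite strand, so part of its counts is uncertain. Directions in the siRNA experiment therefore belong to the libraries labelled CCT4 siRNA. In those libraries 8 of the 10 chemokines were higher and 0 were lower, where 10.7% of all genes were called higher, 9.04% lower and 19.7% in either direction. The 8 were the ones that were higher with anticarin-beta. Their groups did not overlap, nor did those of CXCL12, as was so for 21.7% of all genes in that direction. No chemokine lay lower without overlap, where 20.1% of all genes did. The median log2 fold change of the 10 was 0.69, against 0.01 over all genes. At an unadjusted p under 0.05, 0 chemokines were lower, and DESeq2 and limma-voom also called 0 lower.

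**Figure D3:**
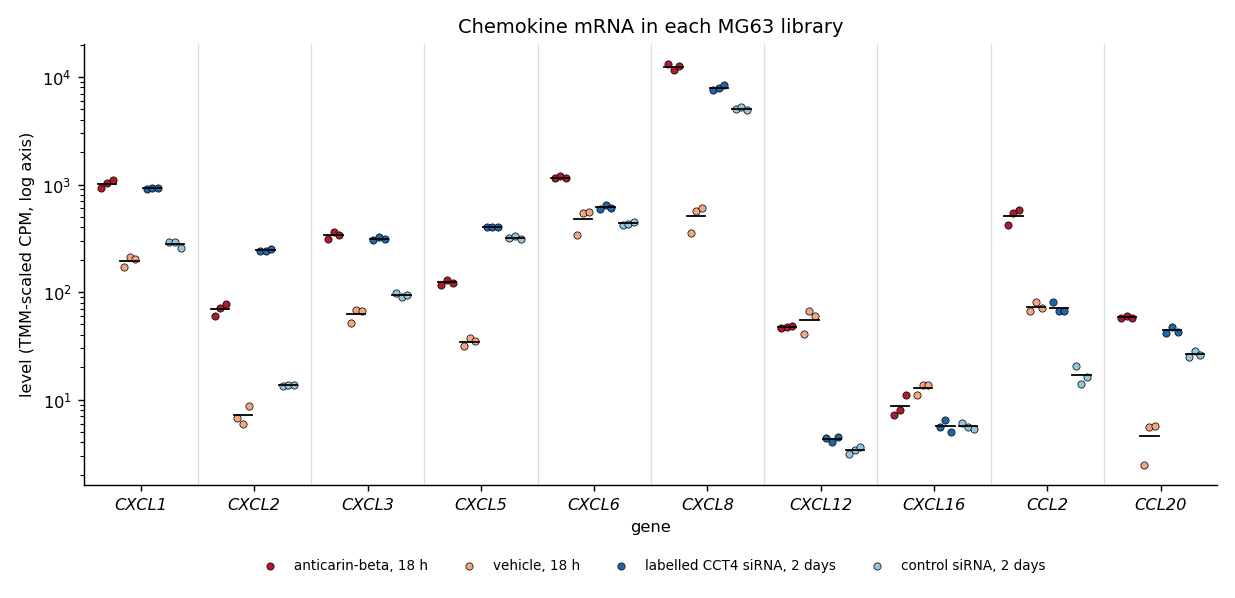
TMM-scaled CPM of the 10 chemokines on a log axis in each of 12 libraries (points), with group means (lines). Each gene has 4 columns, for anticarin-beta, vehicle, labelled CCT4 siRNA and control siRNA; CXCL8 lies on top with group means from 508 to 12483 CPM, and CXCL12 and CXCL16 do not exceed 66.5 CPM.

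CXCL8, the main neutrophil attractant of human cells, was the most abundant of the 10 in every group. It had 13202, 11607 and 12639.8 CPM with anticarin-beta, against 357, 562 and 605 CPM with vehicle. The anticarin-beta libraries lay more than an order of magnitude above every vehicle library, and the fold was 24.6 (log2 4.62 ± 0.17 SE, adjusted p = 1.45e-10). By raw counts CXCL8 ranked 1, 2 and 1 among all genes with anticarin-beta, and 350, 182 and 158 with vehicle. Without vehicle replicate 1 the fold was 21.2. In the siRNA experiment it had 7561, 7972 and 8362 CPM in the libraries labelled CCT4 siRNA, against 5011, 5249 and 4984 CPM with control siRNA. These groups did not overlap either, yet the fold was 1.57 (log2 0.65 ± 0.15, adjusted p = 0.00965). CXCL8 was already high in the control siRNA libraries, whose mean was 10.0 times that of vehicle, and it ranked 4 by raw counts in each of them. That baseline gap lies between experiments that differ in time, transfection and reagents, and these cannot be told apart. The compound response exceeded the siRNA response by 3.97 ± 0.21 on the log2 scale (adjusted p = 1.35e-08).

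CXCL1, CXCL2 and CXCL3 are close copies that lie on chromosome 4 and act on CXCR2. In their transcripts, 4.81% of the 50-base words of CXCL1, 12.5% of CXCL2 and 6.01% of CXCL3 also occur in another of the 3 genes, so reads can be lost or moved between them and each single value is uncertain. CXCL1 had 924, 1036 and 1102 CPM with anticarin-beta, against 170, 214 and 205 CPM with vehicle. It had 918, 920 and 929 CPM in the libraries labelled CCT4 siRNA, against 294, 294 and 259 CPM with control siRNA. Both treated groups thus had nearly the same level, 1021 ± 90.1 CPM with anticarin-beta and 922 ± 6.01 CPM in the labelled CCT4 siRNA libraries, above 196 ± 23.2 CPM with vehicle and 282 ± 20.4 CPM with control siRNA (SD, n = 3 each). The log2 fold changes were 2.38 ± 0.10 for the compound and 1.71 ± 0.09 for the siRNA (adjusted p = 3.35e-10 and 5.48e-07), and they differed by 0.67 ± 0.13 (adjusted p = 0.000728). CXCL3 kept the same proportions at a lower level, with 313, 361 and 341 CPM for anticarin-beta and 51.3, 68.0 and 67.0 CPM for vehicle. In the siRNA experiment it had 307, 322 and 309 CPM in the labelled CCT4 siRNA libraries and 97.2, 90.2 and 94.4 CPM in controls. Neither pair of groups overlapped, the log2 fold changes were 2.45 ± 0.10 and 1.74 ± 0.10, and their difference was 0.71 ± 0.14 (adjusted p = 0.000665). Over the 12 libraries, CXCL1 and CXCL3 had a Pearson r of 1.00 on log2(CPM + 0.5), a description only since libraries of a group share their treatment and the genes share sequence.

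CXCL2 behaved differently from these neighbours. It had 60.4, 71.2 and 77.3 CPM with anticarin-beta, against 6.77, 5.91 and 8.82 CPM with vehicle, a fold of 9.68 (log2 3.28 ± 0.13, adjusted p = 3.11e-10). It had 240, 241 and 254 CPM in the libraries labelled CCT4 siRNA, against 13.5, 13.7 and 13.8 CPM with control siRNA. The siRNA groups were the farther apart, at a log2 fold change of 4.16 ± 0.13 (adjusted p = 2.65e-09), which ranked 11 among 17717 genes from the top. CXCL2 was the 1 chemokine called with a smaller compound than siRNA response, by -0.89 ± 0.18 (adjusted p = 0.000796). When the reads of CXCL1, CXCL2 and CXCL3 were added up, the sum rose 5.38-fold with anticarin-beta and 3.80-fold in the libraries labelled CCT4 siRNA, and its difference was 0.50 in favour of the compound (adjusted p = 0.00421). CXCL1 is the most abundant of the 3 and makes up most of the sum.

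CXCL5 and CXCL6, whose promoters share the 45-base run, also attract neutrophils. CXCL5 had 117, 130 and 123 CPM with anticarin-beta, against 31.2, 37.1 and 35.4 CPM with vehicle, and the fold was 3.57 (log2 1.84 ± 0.07, adjusted p = 3.12e-10). It had 404, 404 and 406 CPM in the libraries labelled CCT4 siRNA, against 318, 335 and 310 CPM with control siRNA. The siRNA groups did not overlap, but the fold was only 1.26 (log2 0.33 ± 0.07, adjusted p = 0.00639), and the level with control siRNA was above every anticarin-beta library. The responses differed by 1.503 ± 0.10 (adjusted p = 7.98e-08), and the control siRNA mean was 9.28 times the vehicle mean. CXCL6, in contrast, had like levels in both control groups, which overlapped. It had 1141, 1189.6 and 1153 CPM with anticarin-beta, against 336, 547 and 550 CPM with vehicle, a fold of 2.43 (log2 1.28 ± 0.14, adjusted p = 3.69e-06). It had 598, 641 and 610 CPM in the libraries labelled CCT4 siRNA, against 419, 434 and 451 CPM with control siRNA, a fold of 1.42 (log2 0.50 ± 0.14, adjusted p = 0.0263). Without any 1 of the 6 libraries of the siRNA experiment that last call was lost (log2 0.48 to 0.53, adjusted p = 0.0532 to 0.0842), and it was lost under library totals alone (0.37, adjusted p = 0.0691), in a range of 3.97e-05 to 1 over the alternatives. The responses of CXCL6 differed by 0.78 ± 0.20 (adjusted p = 0.00472). PPBPP1, a pseudogene, shares 94 exon bases with CXCL6 on its strand, and 28 of the 50-base words of CXCL5 occur in GLYR1.

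CCL2 and CCL20 lie on other chromosomes and use other receptors. CCL2 had 419, 547 and 577 CPM with anticarin-beta, against 66.9, 81.5 and 71.6 CPM with vehicle, a fold of 7.02 (log2 2.81 ± 0.15, adjusted p = 4.05e-09). It had 80.7, 66.9 and 67.3 CPM in the libraries labelled CCT4 siRNA, against 20.4, 13.9 and 16.3 CPM with control siRNA, a fold of 4.24 (log2 2.08 ± 0.16, adjusted p = 5.8e-06). CCL2 in the labelled CCT4 siRNA libraries thus stood at the vehicle level of the other experiment, since its control siRNA mean was 4.34-fold below that of vehicle, the reverse of the baseline of CXCL8. The responses differed by 0.73 ± 0.21 (adjusted p = 0.00965), a call lost under library totals alone (0.44, adjusted p = 0.0795, in a range of 0.00104 to 0.194 over the alternatives). CCL20 had 57.5, 59.7 and 57.3 CPM with anticarin-beta, against 2.45, 5.55 and 5.72 CPM with vehicle, a fold of 12.7 (log2 3.67 ± 0.22, adjusted p = 9.45e-09). It had 41.5, 47.6 and 42.8 CPM in the libraries labelled CCT4 siRNA, against 25.1, 28.5 and 26.2 CPM with control siRNA, a fold of 1.65 (log2 0.73 ± 0.19, adjusted p = 0.0201). Like CXCL8, CCL20 had a higher baseline with control siRNA, 5.81 times that of vehicle, and its responses differed by 2.95 ± 0.29 (adjusted p = 1.93e-06). The siRNA call of CCL20 was lost without control siRNA replicate 1 (0.69, adjusted p = 0.0697), without control siRNA replicate 3 (0.72, adjusted p = 0.0554) or without CCT4 siRNA replicate 2 (0.67, adjusted p = 0.0681), within a range of 0.000112 to 1 over the alternatives.

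CXCL12 and CXCL16 did not follow the others. CXCL12 had 46.0, 47.5 and 48.3 CPM with anticarin-beta, against 40.7, 66.5 and 59.3 CPM with vehicle. These groups overlapped, because vehicle replicate 1 lay below and the other vehicle libraries above all anticarin-beta libraries, and the log2 fold change of -0.23 ± 0.14 did not pass (adjusted p = 0.157). Without vehicle replicate 1 it was -0.42 and passed (adjusted p = 0.000986), as it did with upper-quartile scaling (-0.35, adjusted p = 0.0455) and library totals alone (-0.65, adjusted p = 0.00085), in a range of 0.00085 to 1 over the alternatives. CXCL12 had 4.38, 4.05 and 4.50 CPM in the libraries labelled CCT4 siRNA, against 3.14, 3.42 and 3.64 CPM with control siRNA, and this difference, without overlap, did not pass (log2 0.34 ± 0.19, adjusted p = 0.227). What separated CXCL12 was the experiment, with a mean 16.3-fold lower with control siRNA than with vehicle. CXCL16 had 7.21, 8.04 and 10.96 CPM with anticarin-beta, against 10.98, 13.8 and 13.7 CPM with vehicle, and was 1.47-fold lower (log2 -0.55 ± 0.17, adjusted p = 0.0104), with groups that all but touched. It had 5.62, 6.45 and 5.01 CPM in the libraries labelled CCT4 siRNA, against 6.02, 5.58 and 5.31 CPM with control siRNA. These overlapped, with a log2 fold change of 0.02 ± 0.18 (adjusted p = 0.965). MED11 overlaps 85 exon bases of CXCL16 on the other strand. The compound response minus the siRNA response was -0.57 ± 0.23 for CXCL12 and -0.57 ± 0.25 for CXCL16 (adjusted p = 0.0501 and 0.0626), so neither difference passed. Without vehicle replicate 1, both passed (-0.76 and -0.68, adjusted p = 0.000509 and 0.0313). For CXCL16 the same held without anticarin-beta replicate 3 (-0.77, adjusted p = 0.0116) and without CCT4 siRNA replicate 3 (-0.66, adjusted p = 0.0472), within ranges over the alternatives of 0.000509 to 0.432 for CXCL12 and 0.00779 to 0.439 for CXCL16.

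**Figure D4:**
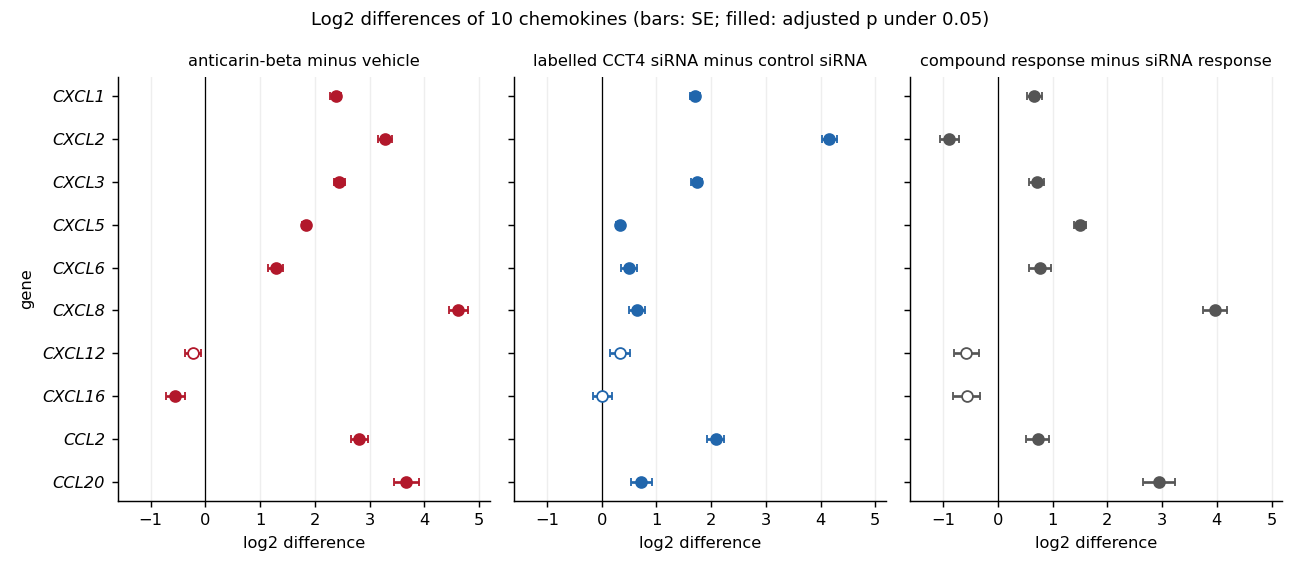
Log2 differences (points) with standard errors (bars) of the 10 chemokines for anticarin-beta minus vehicle, labelled CCT4 siRNA minus control siRNA, and the first minus the second; filled points have an adjusted p under 0.05. CXCL8 and CCL20 have the widest gaps between the responses, 3.97 and 2.95, and CXCL2 is the 1 filled point below 0 in the last panel.

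Between the 2 experiments, the compound response was the larger in 7 chemokines and the smaller in CXCL2, where 27.5% of all genes differed in the same direction as the 7, 32.4% in the other and 59.9% in either. The median difference of the 10 was 0.72, against -0.09 over all genes. The excess was not uniform. CXCL1, CXCL3, CXCL6 and CCL2 differed by 0.67 to 0.78 on the log2 scale, CXCL5 by 1.503, CCL20 by 2.95 and CXCL8 by 3.97. The 3 with the widest differences were also those with the highest control siRNA means relative to vehicle, 9.28 times for CXCL5, 5.81 times for CCL20 and 10.0 times for CXCL8, quantities that share the control libraries with the differences. For CXCL8, CXCL1, CXCL3 and CCL20, the mean with anticarin-beta was 1.57, 1.11, 1.08 and 1.32 times the mean in the libraries labelled CCT4 siRNA. For CXCL2 and CXCL5 it was 0.284 and 0.305 times, and for CCL2 7.18 times. These ratios compare levels across experiments of unlike duration and have no test.

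Read per kilobase of exon, with all annotated exons of a gene merged, levels can be ordered roughly between genes. For CXCL3 and CCL2 the exons merge into 1 block over the whole gene, of 2219 and 1986 bases. The levels of these genes per kb, and so their places in the order, are uncertain, since a shorter transcript would give higher values. With anticarin-beta the order of mean CPM per kb was CXCL8 at 5489, CXCL1 at 788, CXCL6 at 532, CCL2 at 259 and CXCL3 at 152. CXCL5 at 48.7 and CXCL2 at 46.4 overlapped between libraries, and CCL20 at 36.5, CXCL12 at 7.77 and CXCL16 at 3.13 followed. With vehicle there was no such lead, because CXCL8 at 223, CXCL6 at 219 and CXCL1 at 152 CPM per kb overlapped in turn. CCL20 came last with vehicle at 2.87 CPM per kb, below CXCL2 at 4.78 and CXCL16 at 4.59, which overlapped. In the libraries labelled CCT4 siRNA, CXCL8 at 3503 and CXCL1 at 712 CPM per kb led, and CXCL2 at 163 overlapped CXCL5 at 159. With control siRNA, CXCL2 stood below CCL20 and overlapped CCL2, at 9.11, 16.7 and 8.51 CPM per kb for CXCL2, CCL20 and CCL2. CXCL12 was the least abundant in both siRNA groups, with 0.709 CPM per kb in the libraries labelled CCT4 siRNA and 0.559 with control siRNA.

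The 6 neutrophil attractants lie within 359 kb of chromosome 4, chr4:73740506-74099293 in GENCODE release 29 on GRCh38, in a stretch of 9 protein-coding genes. CXCL8, CXCL6 and CXCL1 are on the plus strand and CXCL5, CXCL3 and CXCL2 on the minus strand. The 3 genes between them are the platelet chemokines PF4V1, PF4 and PPBP. PF4V1 averaged 18.9 CPM with anticarin-beta and 18.7 CPM with vehicle, and 35.1 CPM in the libraries labelled CCT4 siRNA and 28.6 CPM with control siRNA. Its log2 fold changes of 0.02 and 0.29 did not pass (adjusted p = 0.931 and 0.238), nor did those of PF4, 0.25 and 0.49 (adjusted p = 0.608 and 0.312), at levels of at most 1.59 CPM. PPBP had at most 9 counts in a library and was not tested. The chemokine genes called in this stretch were thus interleaved with neighbours that were not, and the 2 ends of the stretch held the widest responses to the compound, CXCL8 and CXCL2. CCL2 lies at chr17:34255218-34257203, CXCL16 at chr17:4733526-4739922, CXCL12 at chr10:44370165-44386493 and CCL20 at chr2:227805739-227817564.

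**Figure D5:**
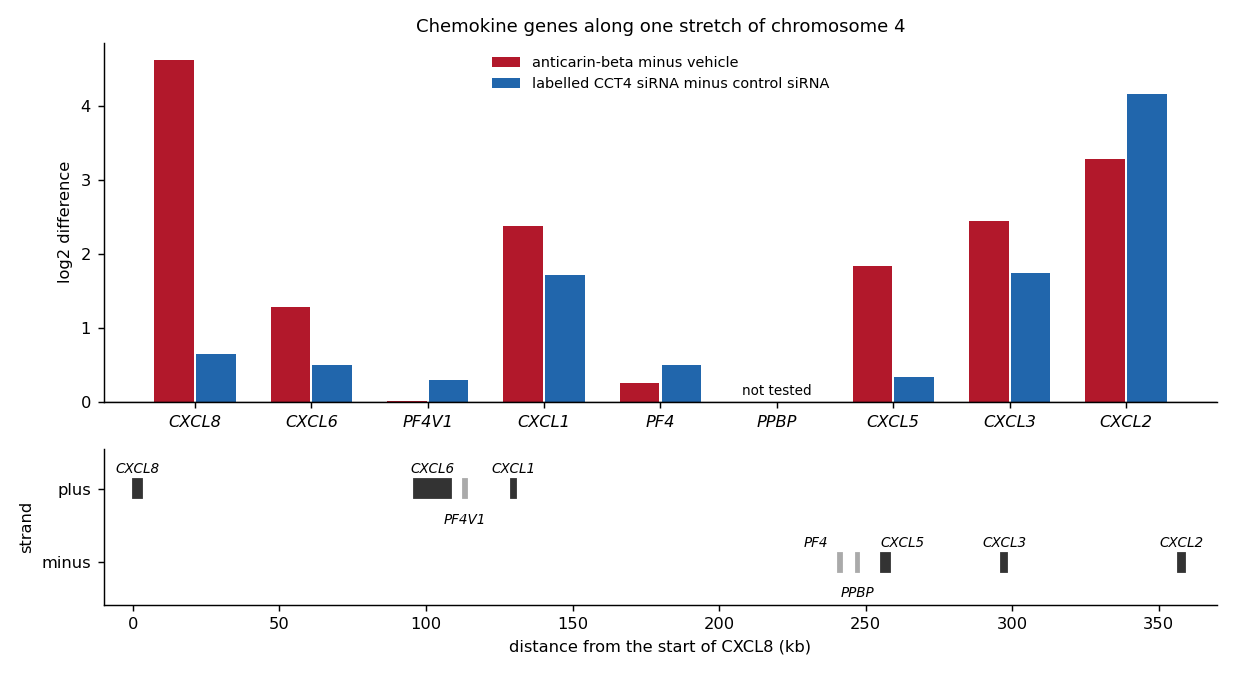
Log2 differences of the 9 protein-coding genes in the chromosome 4 stretch, in their order along it (upper panel), and their positions in kb from the start of CXCL8 on each strand (lower panel; black for the 6 chemokines followed, grey for PF4V1, PF4 and PPBP). The 6 black genes were called higher in both comparisons and the grey ones were not called or not tested.

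Other chemokines were few in MG63 cells. Of 34 further chemokine genes, 9 passed the filter and 8 had no count in any library. With anticarin-beta, 4 of the 9 were higher and 1 was lower, where 34.9% of all genes were called higher and 38.0% lower. The median of the 9 was 0.32 on the log2 scale, against -0.06 over all genes. Under library totals alone it turned to -0.10, against -0.48 over all genes. CCL26, an eosinophil attractant, had a log2 fold change of 1.13 ± 0.17 and CXCL10, an interferon-induced T cell attractant, of 1.08 ± 0.26 (adjusted p = 5.47e-05 and 0.0026). The others called higher, CXCL11 and CCL3, are named after their values were seen, and all 6 CCL3 counts with anticarin-beta came from 1 library against 0 with vehicle, a call lost without that library and without any 1 of the vehicle libraries. CCL28, a mucosal chemokine, averaged 0.115 CPM with anticarin-beta and 5.50 CPM with vehicle, and fell by 5.48 ± 0.45 on the log2 scale (adjusted p = 2.02e-07). Its anticarin-beta mean lay below the level of 3 counts in a library of that group, 0.251 to 0.277 CPM. The size of the fall is therefore uncertain, with log2 fold changes of -6.73 to -4.91 when 1 library was left out. In the siRNA experiment 0 of the 9 were called by edgeR, with 1 at an unadjusted p under 0.05, 0 called by DESeq2 and 1 by limma-voom. There edgeR called 19.7% of all genes in either direction.

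Chemokine receptors were mostly too low to test. Of 23 receptor genes 6 passed the filter, and CXCR1, CXCR2 and CCR2, the receptors of the neutrophil attractants and of CCL2, were not among them. Of the 6, 3 were higher and 2 lower with anticarin-beta, where 34.9% of all genes were called higher and 38.0% lower. CXCR4, the signalling receptor of CXCL12, averaged 17.3 CPM with anticarin-beta and 2.94 CPM with vehicle (log2 2.55 ± 0.15, adjusted p = 8.62e-09). ACKR3, which scavenges CXCL12, averaged 71.2 CPM with anticarin-beta and 21.2 CPM with vehicle (log2 1.75 ± 0.11, adjusted p = 1.43e-08). Both receptors of CXCL12 were thus higher with anticarin-beta, where CXCL12 itself did not pass. ACKR4 was also higher, and is named after its values were seen. CCR10 was lower (log2 -1.46 ± 0.28, adjusted p = 0.000414), and CCR7, with 0 counts in all anticarin-beta libraries and 33 counts over the vehicle libraries, was at least 7.06-fold lower, taking 3 counts over the anticarin-beta libraries as the floor. CXCR6, the receptor of CXCL16, averaged 0.607 CPM with anticarin-beta and 0.827 CPM with vehicle and did not pass. In the siRNA experiment 0 of the 6 passed by edgeR, with 1 at an unadjusted p under 0.05, 0 called by DESeq2 and 1 by limma-voom. Over all genes edgeR called 19.7% there.

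The NF-kB subunits, their inhibitors and kinases were examined as regulators of chemokine genes. Of 15 genes, 9 were higher and 1 lower with anticarin-beta (7 and 3 under library totals alone), and 10 were higher and 0 lower in the libraries labelled CCT4 siRNA (8 and 2 under library totals alone). In the siRNA comparison 2 lower genes had an unadjusted p under 0.05, and DESeq2 and limma-voom called 1 each. The median log2 fold changes were 0.55 for the compound and 0.49 for the siRNA, against -0.06 and 0.01 over all genes. Of all genes, 34.9% were called higher and 38.0% lower with anticarin-beta, and 10.7% and 9.04% in the siRNA comparison. NFKB2, a precursor of the p52 subunit, averaged 319 CPM with anticarin-beta and 62.4 CPM with vehicle (log2 2.35 ± 0.08, adjusted p = 6.68e-11). TNFAIP3, a feedback inhibitor, averaged 78.0 CPM with anticarin-beta and 13.8 CPM with vehicle, and 854 CPM in the libraries labelled CCT4 siRNA and 224 CPM with control siRNA. BCL3, a nuclear co-factor of p50 and p52, had a log2 fold change of -0.15 ± 0.08 with anticarin-beta (adjusted p = 0.11) and of 0.90 ± 0.08 in the libraries labelled CCT4 siRNA (adjusted p = 2.57e-05). IKBKB, a kinase that releases NF-kB, was lower with anticarin-beta (log2 -0.72 ± 0.07, adjusted p = 1.45e-06).

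The AP-1 factors had the largest median of the 7 gene lists examined here, in both comparisons. All 8 were higher with anticarin-beta, where 34.9% of all genes were called higher, and their median log2 fold change was 3.66, against -0.06 over all genes. In the libraries labelled CCT4 siRNA 7 were higher, where 10.7% of all genes were, at a median of 1.22 against 0.01. These counts of AP-1 factors were the same under every scaling tried. JUN averaged 3243 CPM with anticarin-beta and 176 CPM with vehicle (log2 4.21 ± 0.08), and 2321 CPM in the libraries labelled CCT4 siRNA and 459 CPM with control siRNA (log2 2.34 ± 0.07; adjusted p = 1.24e-12 and 2.65e-09). FOSL2 had a log2 fold change of 2.59 ± 0.07 with anticarin-beta (adjusted p = 1.78e-11) and 0.13 ± 0.07 in the siRNA comparison (adjusted p = 0.216). JUNB leaned the other way, with 0.58 ± 0.07 for the compound and 2.30 ± 0.07 for the siRNA (adjusted p = 8.07e-06 and 2.65e-09).

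Among cytokines and receptors that can induce chemokines, 17 of 21 genes passed the filter, and TNF, IL17A, IL17F and TNFSF11 did not. With anticarin-beta 10 were higher and 5 lower, where 34.9% of all genes were called higher and 38.0% lower. The median log2 fold change of the 17 was 2.22, against -0.06 over all genes. CSF2, the granulocyte-macrophage growth factor, averaged 123 CPM with anticarin-beta and 3.07 CPM with vehicle (log2 5.33 ± 0.22, adjusted p = 3.35e-10), and LIF had a log2 fold change of 3.56 ± 0.12 (adjusted p = 6.69e-11). Of the 17, 5 were higher and 2 lower in the libraries labelled CCT4 siRNA (5 and 5 under library totals alone), at a median of -0.02. Over all genes 10.7% were called higher and 9.04% lower there, at a median of 0.01. IL1A, a direct inducer of CXCL8 and CXCL1, averaged 21.0 CPM with anticarin-beta and 0.811 CPM with vehicle, and 50.4 CPM in the libraries labelled CCT4 siRNA and 19.7 CPM with control siRNA (siRNA log2 1.36 ± 0.15, adjusted p = 8.11e-05). CSF3, the neutrophil growth factor, had an siRNA log2 fold change of 1.77 ± 0.12 (adjusted p = 2.53e-06). The other 3 called higher there, IL6, LIF and CSF2, are named after their values were seen. TNFRSF1A, the main TNF receptor, was lower with anticarin-beta and in the libraries labelled CCT4 siRNA (log2 -2.40 ± 0.13 and -0.67 ± 0.12, adjusted p = 4.63e-09 and 0.0033). TLR3, a receptor for double-stranded RNA, was lower with anticarin-beta (log2 -3.98 ± 0.23, adjusted p = 8.07e-09), and its siRNA value of -0.56 ± 0.18 passed narrowly (adjusted p = 0.0481) and was lost when any 1 of 8 of the 12 libraries was left out. IL1R1, TNFRSF1B and IL17RC, the others called lower with anticarin-beta, are named after their values were seen, and the call of IL17RC was lost with RLE scaling and when any 1 of 7 libraries was left out.

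Genes of RNA-binding proteins that act on mRNA decay or translation, some of them through AU-rich elements, all passed the filter, 13 of 13. With anticarin-beta 10 were higher and 3 lower (8 and 3 under library totals alone), and in the libraries labelled CCT4 siRNA 5 were higher and 0 lower (3 and 1 under library totals alone). The shares of all genes called higher and lower were 34.9% and 38.0% for the compound, and 10.7% and 9.04% for the siRNA. In the siRNA comparison 1 lower gene had an unadjusted p under 0.05, and DESeq2 and limma-voom called 1 each. ZC3H12C, a relative of the nuclease Regnase-1, had log2 fold changes of 2.75 ± 0.09 and 0.90 ± 0.09 (adjusted p = 8.02e-11 and 3.64e-05). ZC3H12A, which encodes Regnase-1, had 1.02 ± 0.07 and 0.85 ± 0.06 (adjusted p = 1.96e-08 and 5.68e-06), and RC3H1, which encodes Roquin-1, had 1.73 ± 0.10 with anticarin-beta (adjusted p = 4.42e-09). TIA1, a translational silencer, was lower with anticarin-beta (log2 -0.87 ± 0.08, adjusted p = 1.05e-06). HNRNPD, which encodes AUF1, was lower with anticarin-beta (log2 -0.54 ± 0.12, adjusted p = 0.0016) and higher in the libraries labelled CCT4 siRNA (0.44 ± 0.12, adjusted p = 0.0261). That siRNA call was lost under library totals alone (0.31, adjusted p = 0.0972) and without control siRNA replicate 1, control siRNA replicate 3 or CCT4 siRNA replicate 1. ARID5A, the third gene lower with anticarin-beta, and ZFP36 and RC3H1, also higher in the libraries labelled CCT4 siRNA, are named after their values were seen. The siRNA call of RC3H1 (0.32 ± 0.09, adjusted p = 0.0309) was lost under library totals alone (0.19, adjusted p = 0.161) and on leaving out 1 of 4 libraries, replicates 2 and 3 of control siRNA and replicates 2 and 3 of those labelled CCT4 siRNA.

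Genes that cut chemokines or hold them at the cell surface were examined last. Of 15, 14 passed the filter and MMP9 did not. With anticarin-beta 8 were higher and 2 lower (7 and 6 under library totals alone), and in the siRNA comparison 5 were higher and 0 lower (4 and 0), with 0 lower at an unadjusted p under 0.05, by DESeq2 and by limma-voom. Among all genes, 34.9% were called higher and 38.0% lower for the compound, and 10.7% and 9.04% for the siRNA. MMP3, a secreted protease, averaged 197 CPM with anticarin-beta and 3.98 CPM with vehicle (log2 5.62 ± 0.16, adjusted p = 2.24e-11), and its siRNA log2 fold change was 1.60 ± 0.16 (adjusted p = 3.67e-05). SDC4, a surface proteoglycan that can bind chemokines, averaged 1520.5 CPM with anticarin-beta and 261 CPM with vehicle (log2 2.54 ± 0.11, adjusted p = 4.04e-10), and was called higher in the siRNA comparison too (0.66). So was MMP14 (0.31 ± 0.09, adjusted p = 0.0247), a call lost under library totals alone (0.18, adjusted p = 0.157) and on leaving out 1 of 4 libraries, replicates 1 and 3 of control siRNA and replicates 1 and 2 of those labelled CCT4 siRNA. Of the other syndecans, SDC3 was lower with anticarin-beta (log2 -2.45 ± 0.10, adjusted p = 4.03e-10), as was SDC1 (-2.41 ± 0.16, adjusted p = 2.18e-08), and SDC2 did not pass (-0.51 ± 0.28, adjusted p = 0.117). SDC1 was higher in the libraries labelled CCT4 siRNA (0.60 ± 0.15, adjusted p = 0.0144), a call lost without CCT4 siRNA replicate 2. MMP1, a collagenase, was called in the siRNA comparison (0.64 ± 0.09, adjusted p = 0.000417) and not with anticarin-beta (0.06 ± 0.12, adjusted p = 0.759). ADAM10 and ADAM17, the proteases that release CXCL16 from the membrane, had log2 fold changes of 0.06 ± 0.06 and 1.19 ± 0.07 with anticarin-beta (adjusted p = 0.394 and 1.01e-08), and like MMP14 and SDC2 they are named after their values were seen.

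Genes with the pattern most like each chemokine were sought among 11733 genes of at least 5 CPM in their highest group, by Pearson r of log2(CPM + 0.5) over the 12 libraries. The libraries of a group share their treatment, so r mostly reflects 4 group levels. CXCL1 and CXCL3 were most like JUN (r = 0.988 and 0.990) and KLF10, and CXCL2 was most like EGR1 (0.989) and EFNA1 (0.985). CXCL8 was most like TRIB1 (0.997) and KLF7 (0.995), and CCL20 was most like PTGS2 (0.996) and IFNGR2 (0.993). CXCL8 and CCL20 also resembled each other, at 0.99. CXCL5 was most like ZNF697 (0.996) and FOXD1 (0.995), CXCL6 most like PHKG1 (0.985) and NEDD9 (0.982), and CCL2 most like ERGIC3 (0.996) and KPTN (0.984). CXCL12 was most like ALDH3A1 and PLPP1 (0.997 each) and CXCL16 most like ADAMTS8 (0.965) and AKR1B10 (0.956). Against the other chemokines CXCL12 ran opposite to CXCL5, at -0.89, and CXCL16 likewise, at -0.93, and CXCL12 and CXCL16 had lower levels with control siRNA than with vehicle.

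Sums over all markers listed for other cell types, those that did not pass the filter included, moved in different directions. Myeloid markers, of which 4 of 8 passed the filter, summed to 35.1–44.2 CPM with anticarin-beta and 21.0–31.1 CPM with vehicle, and to 83.9–86.5 CPM in the libraries labelled CCT4 siRNA and 69.5–94.6 CPM with control siRNA. Epithelial markers, 3 of 7, summed to 1.93–3.93 CPM with anticarin-beta and 5.51–6.50 CPM with vehicle, and to 2.55–4.44 CPM in the labelled CCT4 siRNA libraries and 2.15–2.498 CPM with control siRNA. In the siRNA comparison 0 myeloid and 0 epithelial markers were called, with 0 at an unadjusted p under 0.05, by DESeq2 and by limma-voom. KRT14 and KRT19 were lower with anticarin-beta, KRT19 by a log2 fold change of -1.23. KRT14 had 0 counts with anticarin-beta and 41 counts over the vehicle libraries. It was at least 8.77-fold lower, taking 3 counts over the anticarin-beta libraries as the floor. Endothelial markers, 5 of 7, summed to 9.24–10.99 CPM with anticarin-beta and 21.0–24.9 CPM with vehicle, and to 24.9–26.3 CPM against 26.1–31.2 CPM in the siRNA experiment. Of these, VWF and CDH5 were higher with anticarin-beta and PECAM1 and ERG lower, and ERG was also called lower in the siRNA comparison. The call of CDH5 was lost under library totals alone, with upper-quartile scaling and when any 1 of 6 libraries was left out, vehicle replicate 1 among them, and the siRNA call of ERG was lost when any 1 of 5 libraries of that experiment was left out, all but control siRNA replicate 3. Without TMM, by library totals, myeloid sums overlapped, at 28.4–35.7 CPM with anticarin-beta and 23.0–33.3 CPM with vehicle. The osteoblast and mesenchymal sum was higher in both treated groups than in their controls. By library totals, a scaling of these sums chosen after seeing the data, it too overlapped for the compound. It was then 11640–12196 CPM with anticarin-beta and 9809–12419 CPM with vehicle. Of 9 such markers tested, 6 were called higher with anticarin-beta and PDGFRB lower (log2 -1.52), against 34.9% and 38.0% of all genes. Under library totals 3 were higher and 2 lower, and COL1A1, COL1A2 and THY1 turned below 0. In the siRNA comparison 2 were higher and 0 lower, against 10.7% and 9.04% of all genes. The part of these markers in the chemokine differences was not tested.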

How the data were processed

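The authors deposited raw read counts per gene for 12 libraries in 1 table. The TruSeq kit was stranded, per the labels' protocols, and the submitters' processing notes name hg38, featureCounts 1.5.0, Subread and STAR 2.5.2a. The sources used here do not say how the counting treated strand and reads mapping to several places, or with which annotation release. Groups were read from the labels. From the counts, edgeR 4.0.16 (R 4.3.3) gave TMM-scaled CPM and its quasi-likelihood test, two-sided, over the 17717 genes kept by filterByExpr, with 1 mean per group, no replicate block and 8 residual degrees of freedom. p-values were adjusted by Benjamini-Hochberg over all genes tested and called under 0.05. The procedure was tested on simulated data. Positions and exon lengths come from GENCODE release 29, which holds 98.5% of the gene identifiers, and promoters from RefSeq on GRCh38.p14, in which the runs searched were the longest ones shared by the chemokine windows. Counting floors cover counting error only. Tried beside it were DESeq2 1.42.0 and limma-voom 3.58.1, scaling by RLE, by upper quartile or by library totals, other low-count filters, fits of 1 experiment, a replicate block, thresholds of 1.5-fold and of 0.01, and the omission of each library. The text names all 10 chemokines, CCT4, and from each of the gene lists the 2 called genes with the smallest p per direction and comparison plus those called in opposite directions. It also names the 2 genes most like each chemokine. Chemokines and gene lists were chosen with earlier results of these data known.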

Additional observations from a re-analysis of the deposited data

Results flagged for a closer look

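For 8 chemokines the response to anticarin-beta differed from the response in the libraries labelled CCT4 siRNA by a test of the difference itself in edgeR. Of all genes tested, 59.9% were called in this test, 27.5% higher and 32.4% lower. The difference, compound minus siRNA on the log2 scale, was 0.67 for CXCL1, 0.71 for CXCL3, 1.503 for CXCL5, 0.78 for CXCL6, 3.97 for CXCL8, 0.73 for CCL2 and 2.95 for CCL20. For CXCL2 it was -0.89. The experiments also differ in duration, 18 h for the compound and 2 days for the siRNA, and in transfection, and these cannot be told apart from the treatments.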

How the results depend on the processing

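Of 30 chemokine results, 16 stayed on the same side of the threshold and in the same direction under every alternative, and of 689 alternative values 648 did so, 23 lost a call, 13 gained one and 5 reversed. Reversed were CXCL16 in the siRNA comparison (main value 0.02, not called), at -0.0084 with upper-quartile scaling, -0.11 with library totals and within -0.082 to 0.10 when 1 library was left out (below 0 without control siRNA replicate 3 or CCT4 siRNA replicate 2), and the CXCL2 difference, at 0.50 for the sum of CXCL1, CXCL2 and CXCL3, an alternative chosen after seeing the data. The 8 chemokines higher in the siRNA comparison were 4 past a 1.5-fold threshold and 6 to 8 when 1 library was left out. The 1 lower with anticarin-beta became 2 with upper-quartile scaling or library totals, 0 past 1.5-fold or at 0.01, and 1 to 2 when 1 library was left out. Of the differences, the 7 higher became 3 past 1.5-fold, and the 1 lower became 3 with upper-quartile scaling or library totals, 2 with no low-count filter and 1 to 3 when 1 library was left out. Over all genes the siRNA comparison called 1892 higher and 1601 lower, against 902 and 2800 with library totals, 115 and 51 past 1.5-fold, 840 and 677 at 0.01, and 1182 to 2214 and 995 to 1812 when 1 library was left out. The difference called 4866 higher and 5744 lower, and 3724 and 7283 with library totals. Same-numbered libraries did not deviate together over all genes (r from -0.03 to 0.03), which cannot exclude that libraries of the same number share a batch or day. With the replicate block the siRNA comparison called 1300 genes higher and 1050 lower, and 2 chemokine differences were lower, CXCL16 being added at -0.57 (adjusted p = 0.0487). The cause of these changes was not tested. Counts were fewest, and counting error thus widest relative to the value, for CCL20 in vehicle replicate 1, at 46 counts.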
